A study of Homo sapiens with 12 samples.

Results

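The genes described here form the machinery that shortens the poly(A) tail of an mRNA, removes its cap and degrades its body. The set holds 47 genes, named for these roles with earlier results of these data known, by a rule that uses no measured value: the CCR4-NOT complex, PAN2, PAN3 and PARN, the decapping enzyme with its activators, the LSM ring, XRN1 and XRN2, the RNA exosome, nonsense-mediated decay factors and cytoplasmic poly(A)-binding proteins. A member was measured where array probes were assigned to it through the transcript named for the probe, which held for 46 of the 47 among 20708 genes on the array; CNOT6, a catalytic subunit of CCR4-NOT, was not matched to a probe and is not analysed here. All 46 also had a probe that was well above background in at least 1 group, as did 18253 genes in all.

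The cells were MDA-MB-231, an established triple-negative breast cancer line with a mesenchymal-like character, and the study asked how AGO2 contributes to what miR-145-5p does in them. There were 4 groups of 3 arrays each: cntrl, which received control oligonucleotides for both agents; mimic145, which received 5 nM of a mimic of miR-145-5p; sirnaAGO2, which received 500 pM of a Dicer-substrate siRNA against AGO2; and sirnaAGO2+mimic145, which received both. Each agent was replaced by its own negative control where it was absent, so that all groups were transfected, and silencing lasted 72 h. One line with transient transfection was measured, replicates are samples with separate numbers in the labels, and where these are not separate cultures the p-values measure technical spread only.

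In animal cells a microRNA bound to an Argonaute protein pairs with sites in an mRNA, and a TNRC6 protein held by the Argonaute calls in the deadenylases CCR4-NOT and PAN2-PAN3. A message that has lost its tail is bound by the LSM1-7 ring and PATL1, is decapped by DCP2 with help from DCP1, EDC3, EDC4 and the helicase DDX6, and is then digested from its 5′ end by XRN1. The exosome digests RNA from the 3′ end, and DCPS removes the cap that is left after it. Part of the machinery measured here, such as the deadenylases and decapping factors, is therefore a route by which a microRNA lowers its targets. Any mRNA of the measured genes can in turn be a target.

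The sequence that the mimic supplies is shown because it defines the treatment. It is the mature human miR-145-5p as RefSeq gives it for GRCh38.p14, from chr5:149430661-149430683 on the plus strand, with the seed (bases 2 to 8), which pairs with target sites, in capitals.
hsa-miR-145-5p: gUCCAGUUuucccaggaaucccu
The DNA word complementary to this seed is AACTGGA. Target sites in the members were not searched, because no 3′ UTR sequence was used here.

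Values are log2 signals, quantile normalized over the 12 arrays and averaged over the kept probes of a gene, so a difference of 1 is a doubling of signal. A gene passed where limma's moderated test, with the replicate number as a block, gave an adjusted p under 0.05 over 18253 genes. A slide carried 1 replicate number of either the control arm (cntrl and mimic145) or the silenced arm, on 6 slides in all, with the mimic array always in position 2, so that mimic and position on the slide cannot be told apart. The share of spots well above background ran from 60.5% to 77.3% over the arrays. The markers fitted the labelled line in part: on all 3 cntrl arrays VIM had 9 of 9 probes above background, CD44 18 of 18, AXL 19 of 19, EGFR 30 of 31 and CAV1 3 of 3, and the progesterone receptor PGR had 0 of 9, while of genes that should be low ESR1 had 5 of 14, ERBB3 11 of 29, CDH1 7 of 16, EPCAM 8 of 10, CLDN3 1 of 1 and GATA3 6 of 6.

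AGO2, the gene targeted by the siRNA, followed the labels. Its log2 signal was 9.21, 9.14 and 9.01 in cntrl (replicates 1, 2 and 3), 9.44, 9.36 and 9.39 in mimic145, 8.35, 8.44 and 8.42 in sirnaAGO2, and 8.27, 8.35 and 8.41 in sirnaAGO2+mimic145. All 6 silenced arrays were below all 6 others. AGO2 fell by 0.71 (SE 0.08, n = 3, adjusted p 0.00491) to 61.0% of cntrl, and in mimic-treated cells by 1.06 (SE 0.08, n = 3, adjusted p 0.000783) to 48.1% of mimic145. The exact two-sided permutation test of 3 arrays against 3 gave p = 0.1 in both, the smallest this design allows. With the mimic and no silencing AGO2 rose by 0.28 (SE 0.08, n = 3, adjusted p 0.0298 by limma).

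With the mimic in control cells, mRNA decay genes moved in both directions: XRN1, PATL1 and PAN2 fell and most ring and cap subunits of the exosome rose. In mimic145 against cntrl 15 of the 46 members passed (32.6%), where 22.6% of all genes passed by the same rule. There were 8 higher members and 7 lower ones, against 11.6% of all genes higher and 11.0% lower. The median change of the members was -0.003, beside 0.01 over all genes. The members' arrays varied less than those of most genes, with a median SE of 0.08 against 0.10 for all genes. An unadjusted p under 0.05 was reached by 22 members (47.8%) and by 35.4% of all genes. The excess of the members over all genes depended on the fit: with the median over probes 9 members passed beside 18.5% of all genes, and in a fit to the 6 arrays of these groups alone 5 members passed beside 10% of all genes, shares of the members near those of all genes.

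**Figure D1:**
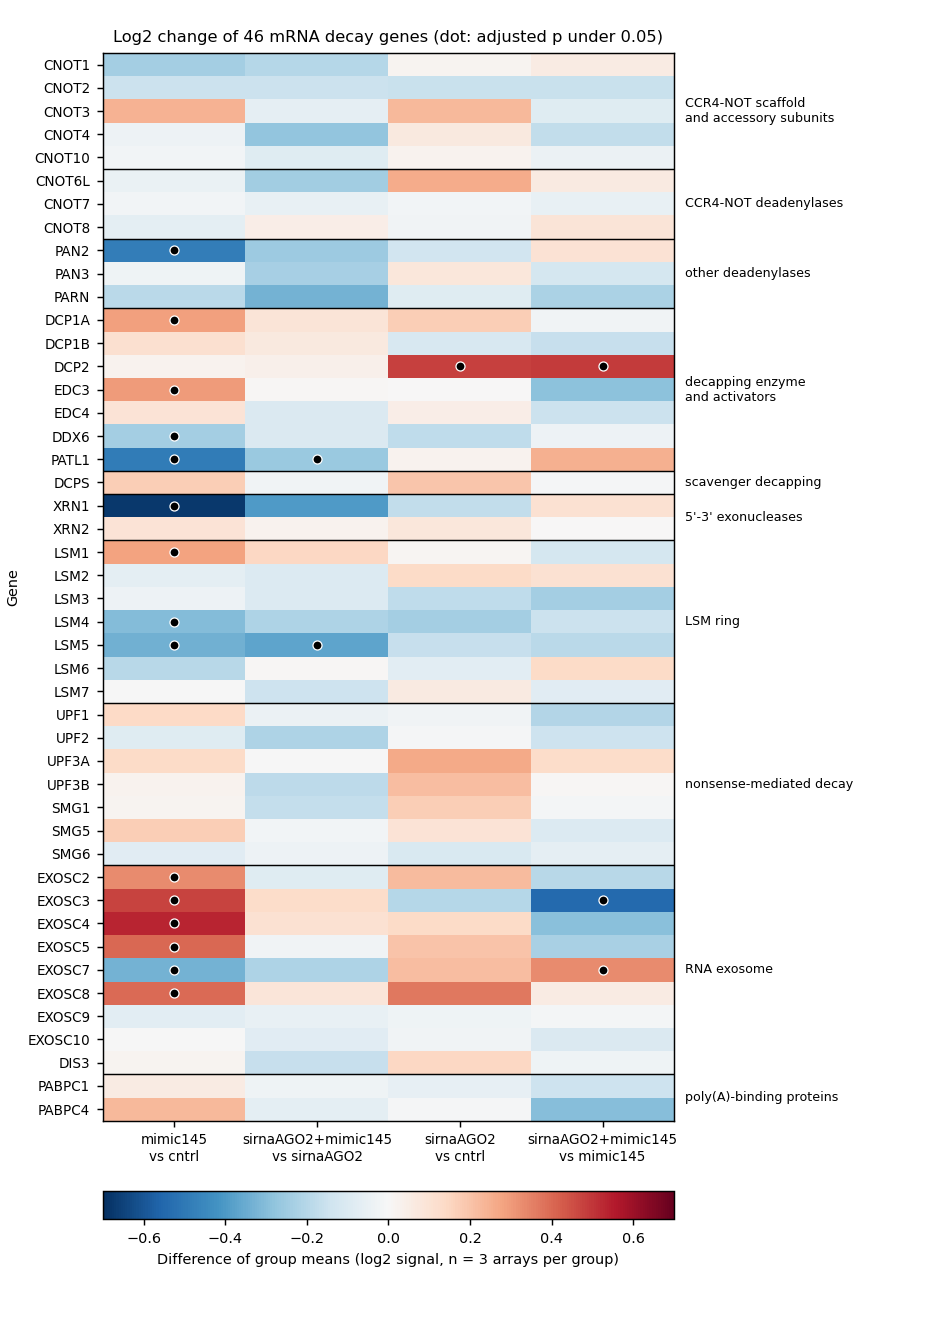
Log2 change (colour, difference of group means, n = 3 arrays per group) of the 46 measured members (rows, grouped by role) in 4 comparisons (columns); a dot marks an adjusted p under 0.05. Dots are most frequent in the mimic145 against cntrl column, with 15, and there the exosome rows hold 6 of them.

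Among the deadenylase members the fall was seen in PAN2. No measured member of CCR4-NOT, the main cytoplasmic deadenylase, passed with the mimic in control cells. CNOT11, a subunit outside the members, did pass and is described below. Of the members limma called 0 of 8, beside 22.6% of all genes, with 3 at an unadjusted p under 0.05, beside 35.4%. The methods' paired test had 1 at an unadjusted p under 0.05. The members' changes ran from -0.24 for CNOT1, the scaffold, to 0.24 for CNOT3, a subunit of the module that also holds CNOT2. The catalytic subunits lay close to 0, with -0.02 for CNOT7 (95% interval -0.17 to 0.13), -0.07 for CNOT8 (-0.24 to 0.10) and -0.05 for CNOT6L (-0.23 to 0.14).

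PAN2 is the catalytic subunit of the other deadenylase complex that TNRC6 proteins recruit. Its log2 signal was 6.82, 6.77 and 6.94 in cntrl, 6.33, 6.40 and 6.34 in mimic145, 6.68, 6.71 and 6.73 in sirnaAGO2, and 6.51, 6.47 and 6.38 in sirnaAGO2+mimic145. Each of the 3 mimic145 arrays was below each cntrl array, and the silenced arm had the same order. PAN2 fell by 0.49 with the mimic in control cells (SE 0.07, n = 3, adjusted p 0.00166), to a signal 1.40-fold lower. Of its 21 kept probes, 8 were above background on all 12 arrays and averaged -0.12, on which PAN2 did not pass, and the other 13 averaged -0.71. A probe that falls with the mimic can leave the first class by falling, so that the split favours smaller changes there and does not test the fall. Conversely, 9 of the 21 were above background on all 3 mimic145 arrays and 3 on none. A probe could be kept through a group without the mimic alone, which favours larger falls among the 13. The fall of 0.49 came in large part from these 13 probes. PAN3, the adaptor that PAN2 works with, differed by -0.03 (95% interval -0.23 to 0.17), and PARN, a separate poly(A)-specific ribonuclease, by -0.19 (-0.39 to 0.02).

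Of the 7 genes of decapping, 4 passed with the mimic in control cells (57.1%), beside 22.6% of all genes. DCP1A and EDC3 rose, and PATL1 and DDX6 fell, while DCP2, the enzyme that cuts the cap, differed by 0.03 (95% interval -0.18 to 0.23).

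PATL1 links the LSM1-7 ring, DDX6 and the decapping enzyme. Its signal was 9.61, 9.54 and 9.58 in cntrl and 9.21, 8.99 and 9.06 in mimic145. In the silenced arm it was 9.68, 9.57 and 9.54 without the mimic and 9.42, 9.35 and 9.23 with it. In both arms the arrays with the mimic lay below those without it and did not overlap them. The fall in control cells was 0.49 (SE 0.06, n = 3, adjusted p 0.00114), or 1.40-fold, and it was present in all 18 kept probes, from -0.93 to -0.35.

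DDX6 is the RNA helicase of processing bodies. Its signal was 9.73, 9.31 and 9.94 in cntrl and 9.43, 9.08 and 9.74 in mimic145, so the groups overlapped although each replicate pair was lower with the mimic (-0.30, -0.22 and -0.20). The fall of 0.24 only just passed (SE 0.08, n = 3, adjusted p 0.0496). It came in large part from 2 of its 15 kept probes, at -1.08 and -0.82, which were not above background on all 12 arrays. On the 11 probes that were, the mean change was -0.14 and DDX6 did not pass, with the same limits as for PAN2.

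DCP1A, the activating partner of DCP2, had signals of 8.33, 8.25 and 8.08 in cntrl and 8.67, 8.30 and 8.54 in mimic145, where replicate 2 of mimic145 lay below replicate 1 of cntrl. It rose by 0.29 (SE 0.08, n = 3, adjusted p 0.0373), with replicate pairs at 0.34, 0.05 and 0.47. Its paralog DCP1B differed by 0.11 (95% interval -0.14 to 0.37). EDC3, an enhancer of decapping that binds DCP2 and DDX6, had 7.98, 7.90 and 8.06 in cntrl and 8.31, 8.19 and 8.35 in mimic145, with no overlap. It rose by 0.30 (SE 0.07, n = 3, adjusted p 0.0172) and in all 7 kept probes. EDC4, the large scaffold of the decapping complex, differed by 0.10 (95% interval -0.04 to 0.24). DCPS, the scavenger enzyme for cap fragments, differed by 0.17 (95% interval 0.02 to 0.33, adjusted p 0.102), with unadjusted p under 0.05.

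XRN1 showed the largest change among the members with the mimic in control cells. This is the cytoplasmic exonuclease that degrades decapped mRNA. Its signal was 7.92, 7.57 and 8.12 in cntrl, 7.36, 7.05 and 7.18 in mimic145, 7.76, 7.59 and 7.74 in sirnaAGO2, and 7.53, 6.92 and 7.44 in sirnaAGO2+mimic145. Every array with the mimic was below every array without it, in both arms. XRN1 fell by 0.67 in control cells (SE 0.11, n = 3, adjusted p 0.0024), to a signal 1.60-fold lower, with -0.57, -0.52 and -0.94 within the slides of replicates 1, 2 and 3. All 38 of its kept probes were lower with the mimic, from -1.11 to -0.23, and the 22 that were above background on all 12 arrays averaged -0.59. XRN2, its nuclear relative, differed by 0.10 (95% interval -0.09 to 0.28).

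The LSM1-7 ring, which holds the shortened 3′ end before decapping, moved in both directions: LSM1 rose, LSM4 and LSM5 fell, and 4 of 7 genes did not pass. Thus 42.9% of the 7 passed, beside 22.6% of all genes. LSM1 is the subunit that sets the cytoplasmic ring apart from the nuclear one, while the others also sit on U6 snRNA. LSM1 had 10.32, 10.39 and 10.29 in cntrl and 10.68, 10.59 and 10.59 in mimic145, with no overlap, and rose by 0.28 (SE 0.07, n = 3, adjusted p 0.0245) in all 4 kept probes. LSM4 had 11.26, 11.58 and 11.34 in cntrl and 11.01, 11.26 and 11.00 in mimic145. The lowest cntrl array and the highest mimic145 array were both at 11.26, and the replicate pairs differed by -0.25, -0.32 and -0.35. LSM4 fell by 0.31 (SE 0.07, n = 3, adjusted p 0.0126).

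LSM5 had 9.57, 9.48 and 9.43 in cntrl, 9.31, 9.07 and 9.09 in mimic145, 9.31, 9.35 and 9.35 in sirnaAGO2, and 8.95, 8.99 and 8.96 in sirnaAGO2+mimic145. The arrays with the mimic were below those without it in both arms. In control cells it fell by 0.34 (SE 0.07, n = 3, adjusted p 0.0116). Its 9 kept probes were uneven, from -1.53 for a probe that was above background on no mimic145 array to 0.10, with a median of -0.06. LSM2, LSM3, LSM6 and LSM7 differed by -0.07, -0.04, -0.20 and -0.003.

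**Figure D2:**
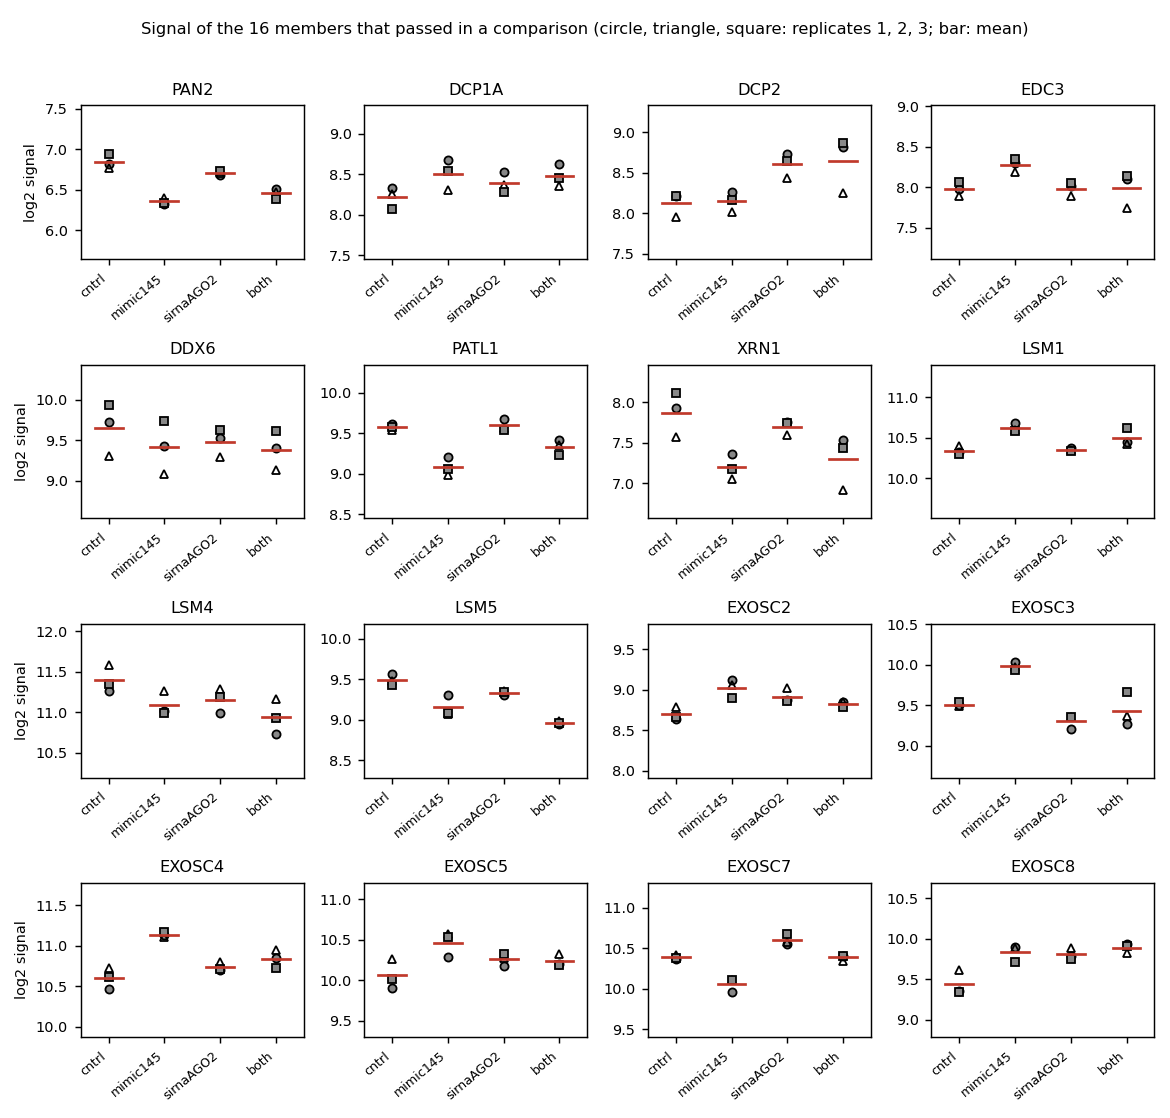
Log2 signal (vertical axis; each panel spans the same range) of the 16 members that passed in at least 1 comparison, on the 12 arrays of cntrl, mimic145, sirnaAGO2 and sirnaAGO2+mimic145 (marked both); circles, triangles and squares are replicates 1, 2 and 3 and red bars the means. XRN1, PAN2, PATL1 and LSM5 are lower with the mimic in both arms, EXOSC3 and EXOSC4 stand highest in mimic145, and DCP2 is higher in the silenced groups.

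The RNA exosome, with 9 genes also the largest group measured, had the most members that passed with the mimic in control cells. Of these, 5 rose and 1 fell, and 3 of 9 did not pass, so 66.7% passed beside 22.6% of all genes. Of 15 exosome subunits and cofactors outside the members 5 passed (33.3%), 3 higher and 2 lower, with a median change of -0.02 over the 15. EXOSC2 and EXOSC3 belong to the RNA-binding cap of the exosome, and EXOSC4, EXOSC5, EXOSC7, EXOSC8 and EXOSC9 to its barrel-shaped ring, while the nucleases EXOSC10 and DIS3 are attached to it. The cap and ring subunits that rose were EXOSC4, EXOSC3, EXOSC5, EXOSC8 and EXOSC2, by 0.33 to 0.53. EXOSC7 fell, and EXOSC9 differed by -0.07 (95% interval -0.32 to 0.17). The catalytic subunits did not pass, with 0.02 for DIS3 (-0.21 to 0.24) and -0.003 for EXOSC10 (-0.18 to 0.18).

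EXOSC4 had 10.47, 10.72 and 10.61 in cntrl, 11.13, 11.11 and 11.16 in mimic145, 10.70, 10.80 and 10.71 in sirnaAGO2, and 10.85, 10.95 and 10.72 in sirnaAGO2+mimic145. The 3 mimic145 arrays were above the 9 others. It rose by 0.53 in control cells (SE 0.08, n = 3, adjusted p 0.00156), or 1.45-fold, and in all 3 kept probes by 0.51 to 0.58. EXOSC3 had 9.50, 9.49 and 9.54 in cntrl, 10.03, 9.98 and 9.94 in mimic145, 9.21, 9.36 and 9.36 in sirnaAGO2, and 9.28, 9.37 and 9.66 in sirnaAGO2+mimic145. Here too the mimic145 arrays were the highest of the 12, and the rise was 0.47 (SE 0.09, n = 3, adjusted p 0.00654), in all 4 kept probes.

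EXOSC5 had 9.91, 10.26 and 10.01 in cntrl and 10.28, 10.56 and 10.53 in mimic145. Replicate 1 of mimic145 was just above replicate 2 of cntrl, and the groups did not overlap. The rise was 0.40 (SE 0.08, n = 3, adjusted p 0.00713). EXOSC8 had 9.35, 9.61 and 9.35 in cntrl and 9.89, 9.89 and 9.72 in mimic145, all higher than cntrl, and rose by 0.40 (SE 0.08, n = 3, adjusted p 0.00934) in all 11 kept probes. EXOSC2 had 8.64, 8.79 and 8.66 in cntrl and 9.12, 9.06 and 8.90 in mimic145, again without overlap, and rose by 0.33 (SE 0.07, n = 3, adjusted p 0.00954) in all 9 kept probes.

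EXOSC7 went the other way. It had 10.36, 10.42 and 10.38 in cntrl, 9.96, 10.10 and 10.11 in mimic145, 10.56, 10.58 and 10.68 in sirnaAGO2, and 10.41, 10.35 and 10.40 in sirnaAGO2+mimic145. The mimic145 arrays were the lowest of the 12 and the sirnaAGO2 arrays the highest. The fall in control cells was 0.33 (SE 0.06, n = 3, adjusted p 0.00681), with 9 of 10 kept probes lower and 1 at 0.15.

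**Figure D3:**
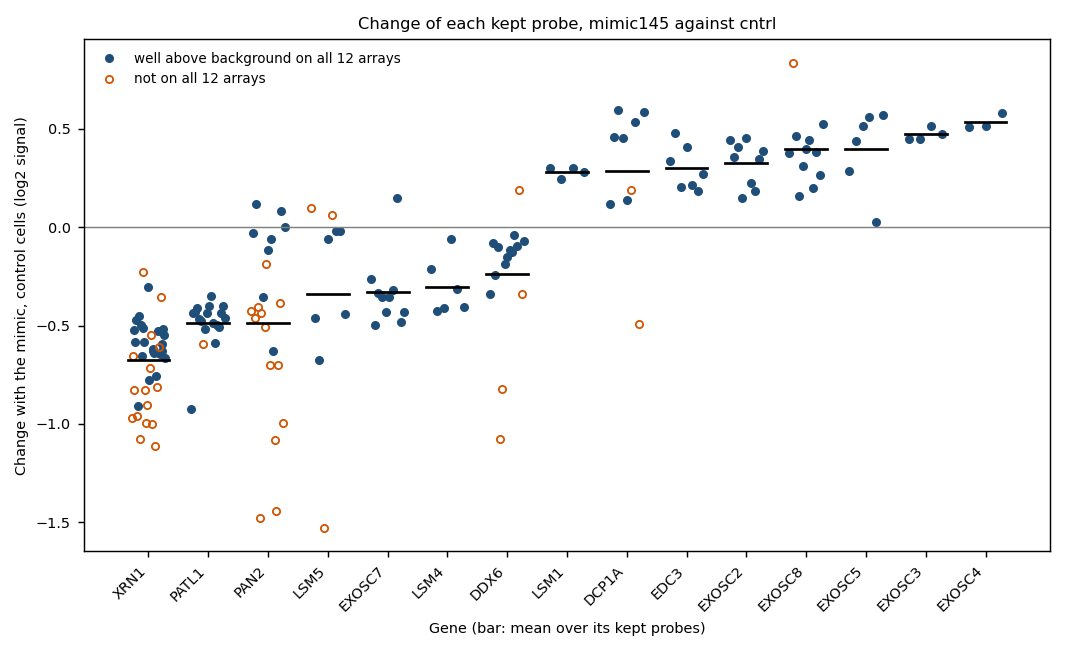
Change of each kept probe with the mimic in control cells (vertical axis, mimic145 minus cntrl, log2 signal) for the 15 members that passed in that comparison, ordered by their change; bars are the means over probes, filled points are probes well above background on all 12 arrays and open points those that were not. The probes of XRN1, PATL1, EXOSC3 and EXOSC4 keep to one side of 0, while the lowest points of PAN2, DDX6 and LSM5 are open.

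None of the nonsense-mediated decay and poly(A)-binding members passed with the mimic in control cells. Nonsense-mediated decay removes mRNAs with an early stop codon; UPF1 is its helicase, SMG1 the kinase of UPF1 and SMG6 an endonuclease. Limma called 0 of its 7 members, with 1 at an unadjusted p under 0.05 and 2 by the methods' paired test. The changes ran from -0.09 (UPF2) to 0.17 (SMG5). Of 16 factors of this pathway and the exon junction outside the members, 3 passed (18.8%), all higher, beside 22.6% of all genes. SMG1 has near-identical copies in the genome, and its probes may read them too. PABPC1 and PABPC4 coat the poly(A) tail. PABPC1, whose probes may also read close copies, differed by 0.06, and PABPC4 by 0.22 (95% interval 0.06 to 0.39, adjusted p 0.0508), with limma at 1 of 2 by an unadjusted p under 0.05 and the paired test at 0.

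How far these calls rest on the processing differed between genes. EXOSC3, EXOSC4, PATL1 and XRN1 passed under all 10 other settings of limma, and these 4 also passed without any 1 of the 12 arrays. Without a whole replicate number, which leaves 2 arrays a group, PATL1 and PAN2 passed in all 3 fits, EXOSC4 and XRN1 in 2 and EXOSC3 in 1. EXOSC2, EXOSC5, EXOSC7, EXOSC8, LSM4 and PAN2 also passed without any 1 array. All of these but PAN2 failed in the fit to the arrays of the compared groups alone. EXOSC7 and EXOSC8 also failed with the median over probes, LSM4 without the replicate block, and PAN2 on probes above background on all 12 arrays. Without a whole replicate number EXOSC2, EXOSC7 and LSM4 passed in 0 of 3 fits, and EXOSC5 and EXOSC8 in 1. Under the methods' paired test with adjustment over all genes 0 members passed, as did 0 of the 18253 genes in any comparison. By its unadjusted p 18 members were under 0.05, beside 21.2% of all genes.

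In AGO2-silenced cells the mimic was followed by fewer calls: PATL1 and LSM5 fell, and no member rose. In sirnaAGO2+mimic145 against sirnaAGO2 2 of 46 members passed (4.35%), where 7.28% of all genes did, 4.25% higher and 3.03% lower. The median change of the members was -0.08, beside 0.02 over all genes, and 35 members were below 0 and 11 above. Over all genes 8386 of 18253 were below 0 and 9867 above. An unadjusted p under 0.05 was reached by 12 members (26.1%) and 28.8% of all genes, and under the methods' paired test by 8 members and 14.2% of all genes.

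PATL1 fell by 0.26 in silenced cells (SE 0.06, n = 3, adjusted p 0.0454), with replicate pairs at -0.26, -0.22 and -0.31. This call did not hold in 11 of the 12 fits that left out 1 array, nor without the replicate block. LSM5 fell by 0.37 (SE 0.07, n = 3, adjusted p 0.0273), with -0.35, -0.36 and -0.39, and passed in 7 of the 12 fits and in 3 of the 10 other settings. Of its 9 kept probes, 1 changed by -1.87 and was above background on no array with the mimic, and the median was -0.21. That probe was kept through sirnaAGO2, the group compared against, a choice that favours a fall. LSM5 did not pass here with the median over probes or on probes above background on all 12 arrays. XRN1 was the member with the lowest value in this arm, at -0.40 (95% interval -0.64 to -0.16), and did not pass (adjusted p 0.0542). PAN2 had -0.25 (adjusted p 0.0607) and PARN -0.33 (adjusted p 0.058). The CCR4-NOT subunits had 0 of 8 called by limma, 4 at an unadjusted p under 0.05 and 2 by the paired test, and ran from -0.28 (CNOT4) to 0.05 (CNOT8).

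The members that had passed in control cells were followed in the silenced arm. The changes in each arm are computed from separate arrays, while the error and the replicate block behind the calls were estimated over all 12. All 7 that fell in control cells were also lower in silenced cells, from -0.40 (XRN1) to -0.10 (DDX6), with a median of -0.25 after -0.34 in control cells. Of the 8 that rose, 6 were higher in silenced cells, and the values ran from -0.09 (EXOSC2) to 0.15 (LSM1), with a median of 0.09 after 0.36. Over all genes, 90.7% of those that fell in control cells were lower in silenced cells, with a median of -0.23 after -0.48, and 87.5% of those that rose were higher, with a median of 0.16 after 0.40. These genes were picked by their calls in control cells, a choice that by itself favours larger values there.

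**Figure D4:**
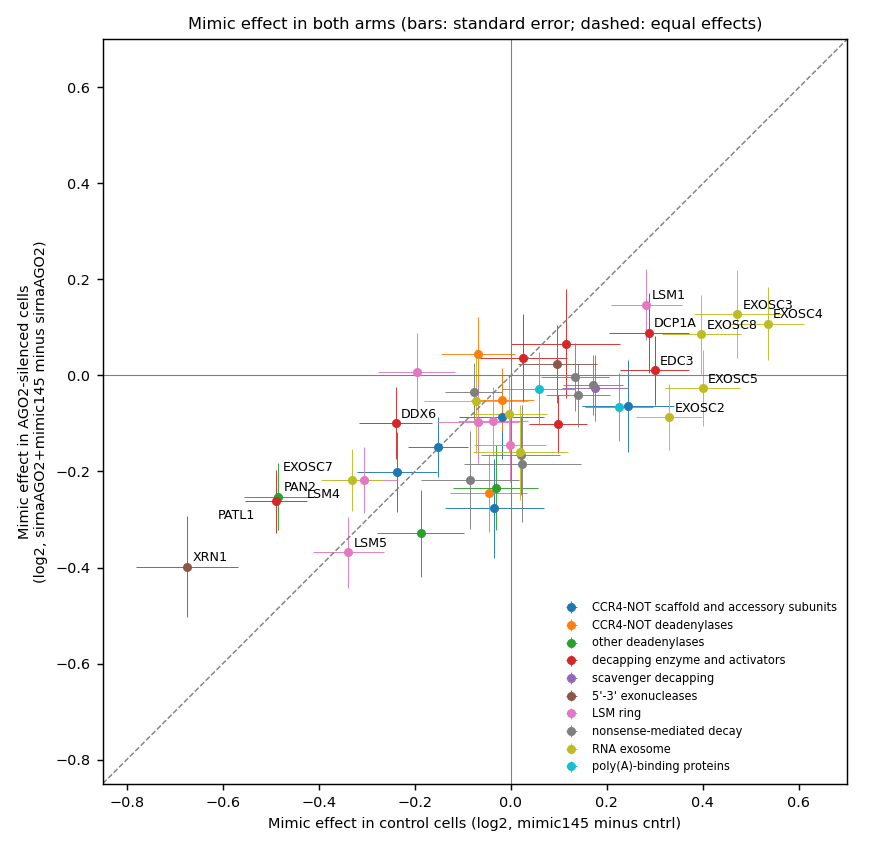
Mimic effect in AGO2-silenced cells (vertical axis, log2, sirnaAGO2+mimic145 minus sirnaAGO2) against that in control cells (horizontal axis, log2, mimic145 minus cntrl) for the 46 members, coloured by role, with standard errors; the dashed line marks equal effects and names are given for members that passed in either arm. XRN1, PATL1 and PAN2 are negative in both, and EXOSC2, EXOSC3, EXOSC4, EXOSC5 and EXOSC8 lie between -0.09 and 0.13 in silenced cells.

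The difference of these effects was tested directly, and no member passed. Limma called 0 of 46, and 0.0110% of all genes passed. An unadjusted p under 0.05 was reached by 11 members (23.9%) and 16.8% of all genes, and under the methods' paired test by 7 members and 10.3% of all genes, with 0 members after adjustment. The median difference, silenced minus control, was -0.13 for the members and 0.02 for all genes, and 33 of the 46 members were below 0. Of the 18253 genes 8549 were below 0. The members' median was -0.10, -0.18 and 0.001 in replicates 1, 2 and 3, -0.07 with the median over probes or with probes above background on all 12 arrays, and ran from -0.16 to -0.05 in fits that left out an array or a replicate number, with -0.05 without replicate 2. The exosome had 5 of the 11. EXOSC4 differed by -0.43 (95% interval -0.67 to -0.18, adjusted p 0.119), EXOSC5 by -0.43 (-0.68 to -0.17, adjusted p 0.128), EXOSC2 by -0.42 (-0.64 to -0.19, adjusted p 0.102), EXOSC3 by -0.34 (-0.64 to -0.05, adjusted p 0.239) and EXOSC8 by -0.31 (-0.57 to -0.05, adjusted p 0.24). The effects on XRN1, PATL1 and PAN2 differed in the other direction, by 0.28 (-0.06 to 0.61), 0.23 (0.02 to 0.43) and 0.23 (0.01 to 0.46).

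In EXOSC2, EDC4 and PABPC4 all 3 replicate pairs were higher with the mimic in control cells and all 3 lower in silenced cells, a pattern held by 6.52% of the members and 1.54% of all genes and chosen after the values were seen. Their differences did not pass (adjusted p 0.102, 0.287 and 0.215). The largest of these was EXOSC2, whose pairs differed by 0.48, 0.27 and 0.24 in control cells and whose mean effect in silenced cells was -0.09. The tests show neither a loss of the mimic effect nor equal effects.

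**Figure D5:**
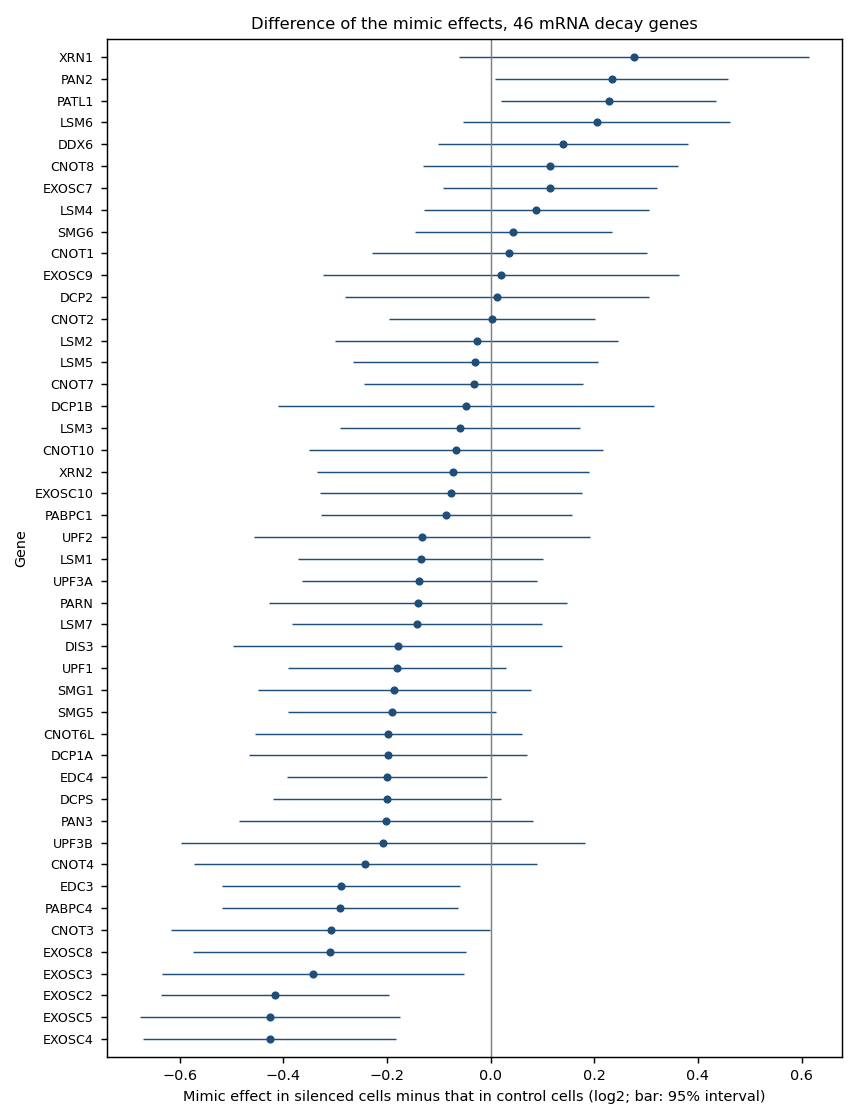
Difference between the mimic effect in AGO2-silenced cells and that in control cells (horizontal axis, log2 signal; points are estimates and bars 95% intervals) for the 46 members, in order of the estimate. Of the 46 estimates 33 are below 0, beside 8549 of 18253 over all genes. EXOSC4 is lowest at -0.43 and XRN1 highest at 0.28, and none of the 46 passed after adjustment.

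With AGO2 silenced and no mimic, DCP2 rose. It was the member called among 46 in sirnaAGO2 against cntrl (2.17%), where 2.58% of all genes passed, 0.888% higher and 1.69% lower. The median of the members was 0.02, beside -0.03 over all genes, and an unadjusted p under 0.05 was reached by 13 members (28.3%) and 19.0% of all genes.

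DCP2 is the enzyme that removes the cap. Its signal was 8.21, 7.95 and 8.21 in cntrl, 8.26, 8.02 and 8.17 in mimic145, 8.73, 8.44 and 8.65 in sirnaAGO2, and 8.82, 8.25 and 8.87 in sirnaAGO2+mimic145. The sirnaAGO2 arrays were above all cntrl arrays, whereas replicate 2 of sirnaAGO2+mimic145 overlapped mimic145. DCP2 rose by 0.48 against cntrl (SE 0.09, n = 3, adjusted p 0.0355), or 1.39-fold, and by 0.49 in mimic-treated cells (SE 0.09, n = 3, adjusted p 0.0243), or 1.41-fold. The groups compared share no array, but both tests use the error and replicate block of the fit to all 12. The first call held in 5 and the second in 7 of the 12 fits that left out 1 array. All 9 kept probes were higher in both, by 0.34 to 0.74 and by 0.22 to 0.74. Without the replicate block it did not pass in either.

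Members that did not pass on silencing included EXOSC8 at 0.37 (95% interval 0.18 to 0.56, adjusted p 0.0525) and, at the other end, LSM4 at -0.24 (adjusted p 0.104). The exosome had 0 of 9 called by limma, with 4 at an unadjusted p under 0.05 and 4 by the paired test. The CCR4-NOT members had 0 of 8, with 3 and 0 by these counts, and the nonsense-mediated decay members 0 of 7, with 1 and 2. By the paired test 17.5% of all genes had an unadjusted p under 0.05. EXOSC8 had 9.78, 9.89 and 9.75 in sirnaAGO2, above its 3 cntrl arrays.

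In mimic-treated cells, silencing of AGO2 was followed by a rise of DCP2 and EXOSC7 and a fall of EXOSC3. In sirnaAGO2+mimic145 against mimic145 3 of 46 members passed (6.52%), where 4.32% of all genes did, 1.87% higher and 2.44% lower. The median of the members was -0.07, beside 0.0008 over all genes, and an unadjusted p under 0.05 was reached by 15 members (32.6%) and 21.5% of all genes. EXOSC3 fell by 0.55 (SE 0.09, n = 3, adjusted p 0.0172), or 1.46-fold, with replicate pairs at -0.75, -0.61 and -0.27. EXOSC7 rose by 0.33 (SE 0.06, n = 3, adjusted p 0.028), with 0.45, 0.25 and 0.29, a call that held in 1 of the 12 fits that left out 1 array, against 8 for EXOSC3. Both genes also passed with the mimic in control cells in the opposite direction, but those comparisons use the same mimic145 arrays, so a deviation of these arrays enters both.

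PABPC4 at -0.30 (95% interval -0.46 to -0.14, adjusted p 0.052), EXOSC4 at -0.29 (adjusted p 0.0656), EDC3 at -0.28 (adjusted p 0.0598) and PATL1 at 0.25 (adjusted p 0.0653) did not pass in this comparison. The CCR4-NOT subunits ran from -0.17 to 0.09 and limma called 0 of 8, with 1 at an unadjusted p under 0.05 and 2 by the paired test. That paired test gave 12.1% of all genes an unadjusted p under 0.05.

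Of the 46 members, 30 passed in no comparison. In mimic145 against cntrl the 31 that did not pass lay between -0.24 and 0.24, 20 of them within 0.1 of 0, and their 95% intervals reached at most from -0.42 (CNOT1) to 0.46 (CNOT3). The spread within groups, pooled over the 4 groups, ran from 0.04 (CNOT2) to 0.27 (DDX6) among the members with a median of 0.12, beside 0.17 over all genes.

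Beyond the members, 83 further genes of mRNA decay were measured from 6 lists drawn up by role. With the mimic in control cells 19 of the 83 passed (22.9%), 14 higher and 5 lower, a share near the 22.6% of all genes. In silenced cells 9 passed (10.8%), 6 higher and 3 lower, beside 7.28% of all genes. With silencing alone 2 did (2.41%, beside 2.58% of all genes), and in mimic-treated cells 4 (4.82%, beside 4.32%). No difference of mimic effects passed among them, with limma at 0 of 83. An unadjusted p under 0.05 was reached by 13 of them, beside 16.8% of all genes. Over all comparisons 9 genes passed with a change over 0.5.

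Among deadenylases and their adaptors, CNOT11, a CCR4-NOT subunit that pairs with CNOT10, rose by 0.60 with the mimic in control cells (SE 0.07, n = 3, adjusted p 0.000867) and by 0.35 with silencing alone (adjusted p 0.0471). ANGEL2, of the deadenylase-related nuclease family, fell by 0.75 in control cells (SE 0.12, n = 3, adjusted p 0.00307) and by 0.59 in silenced cells (adjusted p 0.0314), in all 9 kept probes in both arms. BTG3, of the family of proteins that bind CCR4-NOT nucleases, rose by 0.61 (adjusted p 0.00319) and by 0.51 (adjusted p 0.0277). NUDT16, a nudix enzyme able to remove caps, rose by 0.64 in control cells (adjusted p 0.000818) and by 0.44 in silenced cells (adjusted p 0.0198). CNOT10 itself differed by -0.02 with the mimic in control cells.

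EXOSC1, the cap subunit of the exosome that is not among the members, rose by 0.60 with the mimic in control cells (SE 0.12, n = 3, adjusted p 0.00777), in all 7 kept probes. ETF1, the translation termination factor, rose by 0.80 (SE 0.08, n = 3, adjusted p 0.000424) and by 0.35 in silenced cells (adjusted p 0.0407). Of the proteins that bind AU-rich elements and bring in CCR4-NOT, ZFP36L2 rose by 0.83 in control cells (SE 0.18, n = 3, adjusted p 0.0124), where replicate 3 differed by 1.33 and the others by 0.60 and 0.55, and ZFP36 by 0.51 in silenced cells (SE 0.12, n = 3, adjusted p 0.0419). CPEB2, which binds 3′ UTRs and controls tail length, fell by 0.56 on silencing in mimic-treated cells (SE 0.12, n = 3, adjusted p 0.0348).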

How the data were processed

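RNA of 12 MDA-MB-231 samples was read on single-color Agilent exon arrays, 3 in each of 4 groups. Per the file headers, the authors used Agilent Feature Extraction 10.7.3.1, and the deposited intensity (processed signal) had its background removed spot by spot and was left unnormalized across arrays. A second table deposited by the authors holds quantile normalized log2 values and served as an alternative. Doses and times come from the labels and methods. Outlier spots (304 to 462 per array) and 8943 control spots were left out; 0 spots were saturated. Intensities were set to at least 1, quantile normalized and log2 transformed. Of 233164 probes, 209671 (89.9%) were assigned to a gene by transcript through RefSeq's table. Kept were 142957 probes that, in 1 group or more, were well above background on each of its 3 arrays, and a gene is the mean of its kept probes. The number of arrays limits the precision.

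Analyses used limma 3.58.1 and data.table (version 1.17.8) in R 4.3.3, with Python 3.11.15, matplotlib 3.10.9 and pandas 2.3.3 for plots. One linear model, with terms for the 4 groups and for the replicate number, took in all arrays. Two-sided p-values were adjusted over 18253 genes by Benjamini-Hochberg. The pairing follows the labels and the methods' paired test: deviations from group means correlated at 0.148 to 0.576 in 18 pairs of the same number and at -0.497 to 0.201 in 36 others. The fit was tested on simulated data with planted changes larger than those of the members, so changes of the members' size were not tested. The slide was tried as a block; no slide holds both silencing arms.

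The members and lists were chosen with earlier results of these data known. Members that passed in a comparison were named with their values, others by counts and ranges or as partners of these; of the other decay genes, those that passed with a change over 0.5 were named. Further alternatives were 75th percentile scaling, normexp (offset 50), other probe filters, the median over probes, no block, fewer arrays, an intensity trend, the methods' paired test and leaving out arrays.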

Additional observations from a re-analysis of the deposited data

How the results depend on the processing

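No called change of a member, nor that of AGO2 on silencing, reversed its direction under the alternatives run. The members' median for mimic145 against cntrl, -0.003, had no settled sign, at 0.02 with 75th percentile scaling, 0.045 with the median over probes and -0.044 to 0.076 in leave-out fits. For mimic145 against cntrl, 15 members passed; 9 did with the median over probes, 5 in fits to the 2 compared groups alone, 10 without the replicate block and 0 by the methods' paired test after adjustment, and between 3 and 14 when a replicate or an array was left out (3 without replicate 1, 4 without replicate 3, 7 without replicate 2, 10 without cntrl replicate 1). Of all genes 10.9% passed without the block, and 6.63%, 9.32% and 12.7% without replicates 1, 3 and 2. For the mimic in silenced cells, 2 passed, and 1 did in the authors' table (11.3% of all genes). There were 0 without the replicate block, with the slide in its place or with probe medians. Fits to the 2 groups alone and the adjusted paired test gave 0, and its unadjusted p 8. With a replicate or an array left out 0 to 4 did, 4 without cntrl replicate 3 (6.67% of all genes). It was 0 or 1 without any other array but sirnaAGO2+mimic145 replicate 1. For sirnaAGO2 against cntrl, 1 passed. With normexp (4.54% of all genes) and on probes above background on all 12 arrays (6.81%) 3 did. In the authors' table (3.25%), with the slide as a block (3.17%) or an intensity trend (3.72%) 2 did. The median over probes, no replicate block and the adjusted paired test gave 0, and its unadjusted p 11 (17.5%). With a replicate or an array left out 0 to 2 did (2 without sirnaAGO2+mimic145 replicate 2). The members' median there, 0.02, was 0.0050 with 75th percentile scaling, 0.0398 with no probe filter, 0.0064 with the median over probes and 0.0007 to 0.0540 in leave-out fits. For sirnaAGO2+mimic145 against mimic145, 3 passed; 6 did with normexp, 7 with the strict probe filter or an intensity trend, 1 with no replicate block, 0 in fits to the 2 groups alone or by the adjusted paired test, 5 by its unadjusted p, and 0 to 3 with a replicate or an array left out (0 or 1 without any mimic145 or sirnaAGO2+mimic145 array or sirnaAGO2 replicate 1), where the median, -0.07, ran from -0.1183 to -0.0423. Of all genes 6.49% passed there with normexp, 8.48% with the strict filter, 6.25% with the trend and 0.548% with no replicate block. By the unadjusted paired test 12.1% did. For the difference of mimic effects, which needs all 4 groups, 0 became 7 by the unadjusted paired test. AGO2 at -0.71 did not pass the adjusted paired test (-0.7140), nor without any 1 replicate number or without sirnaAGO2 replicate 1, and ran from -0.7829 to -0.6407 in leave-out fits. The cause of these shifts was not tested, beyond the smaller number of arrays or probes in some of the fits. The 75th percentile scaling moved the median of all genes in silenced cells to 0.11 (0.02 before).

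Single arrays decided some calls. With the mimic in control cells, DDX6 (-0.29 to -0.21) passed in 2 of 12 such fits, those without mimic145 or sirnaAGO2 replicate 3, and DCP1A (0.20 to 0.41) passed in 4 of 12 such fits, failing without cntrl or mimic145 replicates 1 and 3, any sirnaAGO2 array or sirnaAGO2+mimic145 replicate 3. EDC3 (0.27 to 0.33) and LSM1 (0.24 to 0.33) failed without cntrl replicate 1 or 3 or mimic145 replicate 1 or 2, and LSM5 (-0.41 to -0.29) without cntrl replicate 1. In silenced cells, LSM5 (-0.42 to -0.33) failed without any sirnaAGO2 array or sirnaAGO2+mimic145 replicate 2 or 3, and PATL1 (-0.30 to -0.22) passed in the 1 fit without cntrl replicate 3. DCP2 on silencing failed without any cntrl or sirnaAGO2 array or mimic145 replicate 1 (0.45 to 0.51), and in mimic-treated cells without mimic145 or sirnaAGO2+mimic145 replicates 1 and 3 or sirnaAGO2 replicate 1 (0.39 to 0.62). There EXOSC3 (-0.68 to -0.44) failed without mimic145 or sirnaAGO2+mimic145 replicate 1 or 2, and EXOSC7 (0.27 to 0.37) passed in the 1 fit without cntrl replicate 3.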
